A study of Mus musculus with 2 samples.

Results

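The heme-regulated eIF2alpha kinase stress pathway was described through 9 mouse genes: Eif2ak1, Eif2ak2, Eif2ak3, Eif2ak4, Atf4, Ddit3, Ppp1r15a, Ppp1r15b and Trib3. They were taken by symbol from the GENCODE M21 annotation, which holds 21938 protein-coding gene records on the chromosomes used, and were examined together with 50 kb on either side of each gene body. Chromatin was assayed by ATAC-seq: a transposase cuts and tags DNA where nucleosomes leave it exposed, so that peak intervals mark open chromatin. There was 1 group with 2 biological replicates, each of 50000 primary erythroblasts. The mice were adult C57BL/6J males, 5 to 6 weeks old. The labels give both replicates the same donor identifier and separate biosamples, so their spread may be partly technical. Sequencing instruments are named for replicate 2 alone, so instrument and replicate cannot be told apart. No treatment, mutant or second cell type was used in this account, so the values describe erythroblasts under 1 condition.

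Eukaryotic cells slow protein synthesis under stress by phosphorylating the alpha subunit of the initiation factor eIF2, and each of 4 kinases senses a different stress. Eif2ak1 encodes HRI, the kinase that is held inactive by heme and that keeps globin synthesis in step with heme supply in red cell precursors. Phosphorylated eIF2 lowers translation in general while favouring translation of the Atf4 mRNA. Atf4 encodes a transcription factor whose targets include Ddit3, Trib3 and Ppp1r15a, and the last of these encodes a phosphatase subunit that reverses the phosphorylation.

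Each replicate came with its own list of peak intervals thresholded on the irreproducible discovery rate, 17777 intervals in replicate 1 and 18837 in replicate 2. Enrichment is the authors' value for the strongest summit of an interval, a ratio over background, and the −log10 p is the authors' significance for the same summit. Neither list holds read counts, so the depth of the libraries is unknown. A promoter was called open where an interval lay within 1 kb of any annotated start site of the gene in both replicates. An interval reports accessibility over all cells of a library, so a site open in a few cells cannot be told apart from one that is weakly open in many. By this rule 9 of the 9 genes were open, against 41.4% of all protein-coding genes. Also, 10 of 10 erythroblast marker genes had open promoters and 0 of 8 markers of other blood cells did. With 2 replicates of a single group, the values of the genes are given side by side without a test.

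The 4 kinase promoters differed in the height and in the summed length of their open intervals. Eif2ak1 (chr5:143817788-143904251, plus strand, in mm10) had promoter enrichments of 7.45 in replicate 1 and 7.08 in replicate 2. Eif2ak2 (chr17:78852564-78882573, minus strand), which encodes the kinase PKR that binds double-stranded RNA, had 11.5 and 11.7 in the same replicates. Eif2ak3 (chr6:70844515-70905245, plus strand), which encodes the endoplasmic reticulum kinase PERK, had 12.5 and 12.7. The enrichment of Eif2ak1 therefore lay below that of both of these kinases in each replicate. Eif2ak4 (chr2:118388618-118475234, plus strand), which encodes the amino acid sensor GCN2, had 12.03 and 10.7. These values overlapped those of Eif2ak2, and Eif2ak3 lay above both in each replicate.

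**Figure D1:**
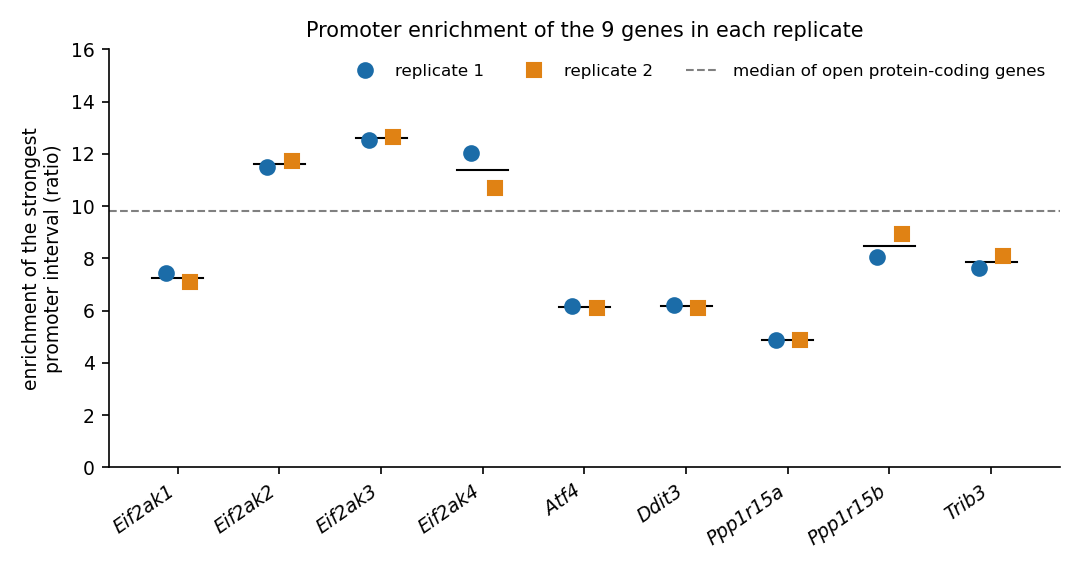
Enrichment (ratio, y axis) of the strongest promoter interval of each of the 9 genes, with Eif2ak1 first; circles are replicate 1, squares replicate 2, bars the mean, and the dashed line the median over open protein-coding genes. Eif2ak1 averages 7.26 and sits under the 9.80 of the dashed line, which the other 3 kinases exceed.

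Eif2ak1 averaged 7.26 ± 0.26 (SD, n = 2) and the median of the means of the other 3 kinases was 11.6, a difference of -4.34 on the enrichment scale. Taken within a replicate, with the median of the 3 kinases found in that replicate, the difference was -4.58 in replicate 1 and -4.63 in replicate 2. Among the 9083 open protein-coding genes, 18.7% had a lower mean promoter enrichment than Eif2ak1, compared with 72.7% for Eif2ak2, 82.2% for Eif2ak3 and 69.9% for Eif2ak4. Low values were also seen at the 10 erythroblast marker genes, whose mean enrichments had a median of 4.99 and ran from 3.33 to 8.49. All of these lay under the median of 9.80 over open protein-coding genes. The order depended on the measure. By −log10 p, Eif2ak1 had 86.2 and 80.5 and so stood above the 69.3 and 77.5 of Eif2ak2. Eif2ak4, with 96.5 and 88.5, and Eif2ak3, with 133 and 135, stood above Eif2ak1 in both replicates.

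The open chromatin counted to the Eif2ak1 promoter was long when its intervals were summed. It was made of 2 intervals in each replicate, covering 2291 bp in replicate 1 and 2291 bp in replicate 2, with 8 summits in each. The interval at the start site alone had 1121 and 1191 bp, a width like that of the single Eif2ak4 interval. The other, of 1170 and 1100 bp, had its summit in the first intron and counted as promoter because its near edge lay within 1 kb of a start site. The intervals at the other kinase promoters covered 891 and 942 bp for Eif2ak2, 1016 and 835 bp for Eif2ak3, and 1191 and 1211 bp for Eif2ak4. The length at Eif2ak1 exceeded the median of the other kinases by 1275 bp in replicate 1 and by 1349 bp in replicate 2. A larger share of open genes, 98.9%, had fewer bases in promoter intervals than Eif2ak1 than had fewer than Eif2ak2 (40.7%), Eif2ak3 (41.8%) or Eif2ak4 (71.7%). Having at least 2 promoter intervals in each replicate was seen in 2 of the 9 genes, Eif2ak1 and Ppp1r15a, and in 6.36% of protein-coding genes.

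**Figure D2:**
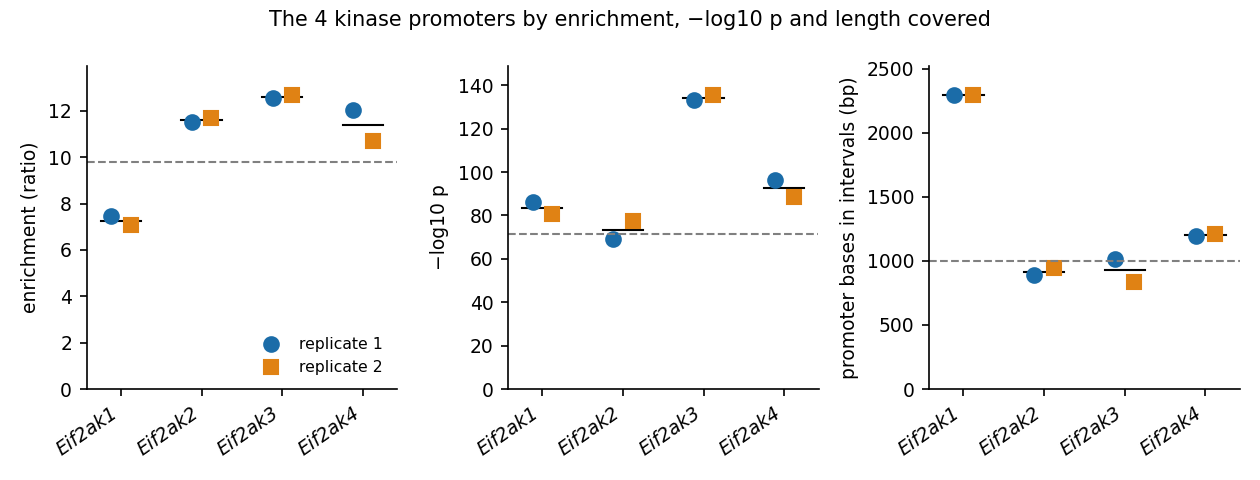
The 4 kinase promoters by enrichment (ratio), −log10 p and number of bases in promoter intervals (bp), from left to right; circles are replicate 1, squares replicate 2, bars the mean, and dashed lines the medians over open protein-coding genes. Eif2ak1 is lowest by enrichment, between Eif2ak4 and Eif2ak2 by −log10 p, and highest by length, with 2291 bp summed over 2 intervals in both replicates.

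The sequences just upstream of the kinase genes are shown because the strongest summit of each promoter fell close to them, and capitals mark GC boxes (GGGCGG) and CCAAT boxes (CCAAT) on either strand. They are the bases before the start site in the RefSeq promoter table for GRCm38.p6, each cut to a stretch free of annotated messenger RNA, and are written along the gene strand: chr5:143817542-143817787 for Eif2ak1, chr17:78882624-78882717 for Eif2ak2, chr6:70844265-70844483 for Eif2ak3 and chr2:118388367-118388582 for Eif2ak4.
Eif2ak1: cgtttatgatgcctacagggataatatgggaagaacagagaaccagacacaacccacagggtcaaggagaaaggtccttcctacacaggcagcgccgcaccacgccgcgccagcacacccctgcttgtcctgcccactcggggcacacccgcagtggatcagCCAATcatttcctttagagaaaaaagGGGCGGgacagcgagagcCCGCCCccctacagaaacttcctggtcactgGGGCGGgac
Eif2ak2: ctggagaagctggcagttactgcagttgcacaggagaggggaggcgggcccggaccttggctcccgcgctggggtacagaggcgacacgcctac
Eif2ak3: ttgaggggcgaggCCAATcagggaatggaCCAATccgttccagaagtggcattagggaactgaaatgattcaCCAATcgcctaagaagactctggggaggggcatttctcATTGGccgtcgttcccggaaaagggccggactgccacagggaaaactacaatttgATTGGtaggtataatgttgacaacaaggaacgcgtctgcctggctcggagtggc
Eif2ak4: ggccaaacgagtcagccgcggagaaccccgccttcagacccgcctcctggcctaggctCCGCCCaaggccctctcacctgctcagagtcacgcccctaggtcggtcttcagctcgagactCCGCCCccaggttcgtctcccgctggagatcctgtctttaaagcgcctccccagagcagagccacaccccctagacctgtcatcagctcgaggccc

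The Eif2ak1 stretch held 3 GC boxes and 1 CCAAT box, and its main summit in replicate 1 lay 78 bp upstream of the start site, beside the CCAAT box. The Eif2ak3 stretch held 5 CCAAT boxes and no GC box, and the Eif2ak4 stretch held 2 GC boxes and no CCAAT box. Neither word was present in the stretch shown for Eif2ak2. In all RefSeq promoters of 300 bases, 35.7% held a GC box and 37.4% a CCAAT box, so either word is common. Of the 9 genes, 8 had an entry in that table and Ppp1r15b had none.

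The second promoter interval of Eif2ak1 lay in its first intron. Its summit in replicate 1 was 1.15 kb from the nearest start site and 1.31 kb from the outermost one. Enrichment there was 6.29 in replicate 1 and 6.69 in replicate 2, a little under the 7.45 and 7.08 of the interval at the start site. The sequence within 75 bp of the summit, chr5:143819020-143819170 on the plus strand, is shown because it held a GATA word, the core recognised by the erythroid factor GATA1. The words searched on both strands were AGATAA and its form that ends in G (AGATAG), and likewise TGATAA and its form that ends in G (TGATAG). The match is in capitals.
Eif2ak1 intron site: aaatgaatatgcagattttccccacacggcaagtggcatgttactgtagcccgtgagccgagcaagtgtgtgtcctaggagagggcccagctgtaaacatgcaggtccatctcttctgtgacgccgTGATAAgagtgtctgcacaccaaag

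The match began 51 bp downstream of the summit. No GATA word lay within 75 bp of the summit at the start site of any of the 4 kinases. Of the 11 promoter sites of the 9 genes found in both replicates, 3 held such a word (27.3%), namely this intron site, the Atf4 promoter and the stronger Ppp1r15a interval. The share among all 10009 sites found in both replicates within 1 kb of a start site was 13.8%. RefSeq promoters of 300 bases did not show this difference. There 3 of 9 promoters of 8 of the genes held a GATA word, against 29.8% of all RefSeq promoters. Those 3 belonged to Atf4, Ddit3 and Ppp1r15a.

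Beyond their promoters the kinases had 2 to 4 sites found in both replicates, and these lay in different places. Eif2ak1 had 3 in a window of 186.5 kb, Eif2ak2 had 2 in 130 kb, Eif2ak3 had 4 in 160.7 kb and Eif2ak4 had 2 in 186.6 kb. Such counts are common: 42.5% of protein-coding genes had at least 2, 30.9% at least 3 and 22.0% at least 4. The 3 sites of Eif2ak1 lay past the 3′ end of the gene, in or beside Pms2 and Aimp2. Pms2 encodes a DNA mismatch repair protein and Aimp2 a scaffold of the aminoacyl-tRNA synthetase complex. At their shared promoter the enrichment was 9.02 and 9.24. A site in a Pms2 exon, 13.4 kb past the end of Eif2ak1, had 7.08 and 9.14, the widest spread between replicates among the 3. The strongest was a site in a Pms2 intron, 20.7 kb past the end of Eif2ak1 and 107 kb from its 5′ end, with 13.5 and 12.6. In replicate 1 it exceeded 94.3% of the intervals of the list, and in both replicates it was higher than the Eif2ak1 promoter itself.

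**Figure D3:**
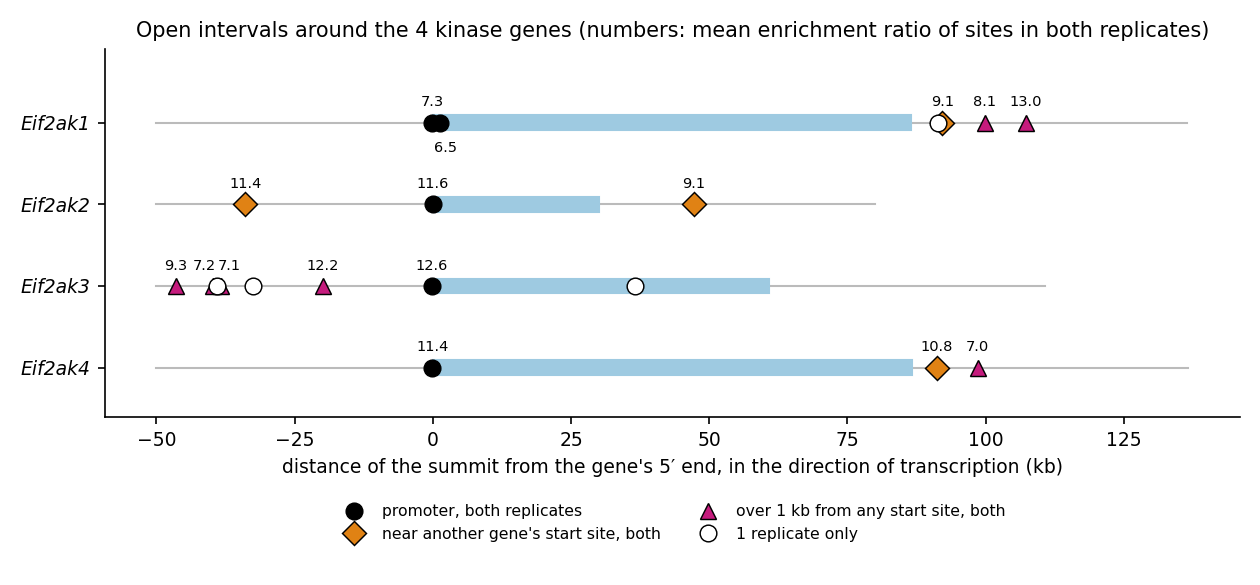
Intervals around the 4 kinase genes by the distance of their summit from the 5′ end (kb, x axis), with blue bars for gene bodies and grey lines for the windows; numbers are mean enrichments of the intervals found in both replicates. The sites of Eif2ak1 lie at its promoter and past its end, those of Eif2ak3 upstream, and apart from promoters no filled symbol lies inside a gene body.

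The sequence within 75 bp of that summit, chr5:143924910-143925060, carried both a GATA word and a CACCC word. CACCC words, which KLF-family factors such as erythroid KLF1 recognise, were searched as CCACACCC and CCNCNCCC on both strands, a form that can overlap a GC box. In the sequence below the capitals mark TTATCT, the reverse complement of AGATAA, which began 32 bp upstream of the summit, and GGGTGTGG, the reverse complement of CCACACCC, at the summit.
Pms2 intron site: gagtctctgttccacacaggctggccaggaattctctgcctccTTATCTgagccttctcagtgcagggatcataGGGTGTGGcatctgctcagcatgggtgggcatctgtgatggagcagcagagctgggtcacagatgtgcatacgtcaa

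Around Eif2ak3 each of the 4 sites lay upstream and over 1 kb from any start site. The highest of them, 19.9 kb upstream, had an enrichment of 12.3 in replicate 1 and 12.1 in replicate 2, close to the 12.5 and 12.7 of the Eif2ak3 promoter. Others at 46.5, 39.8 and 38.4 kb upstream had 9.17, 7.09 and 7.01 in replicate 1 and 9.53, 7.29 and 7.17 in replicate 2. None of these 4 sites held a GATA word within 75 bp of its summit. The one at 19.9 kb is shown (chr6:70824588-70824738, plus strand) with E-boxes, searched as CAGNTG on both strands, in capitals.
Eif2ak3 upstream site: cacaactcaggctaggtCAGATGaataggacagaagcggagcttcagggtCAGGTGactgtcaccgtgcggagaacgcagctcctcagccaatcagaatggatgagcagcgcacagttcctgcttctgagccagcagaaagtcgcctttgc

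An E-box was found at 44.8% of the 6181 sites of both replicates that lay over 1 kb from any start site, so its presence is common. Both sites of Eif2ak2 were promoters of other genes, Gpatch11 with Heatr5b (9.57 and 8.66) and Cebpzos (11.7 and 10.98). Its own promoter interval also lay within 1 kb of a start site of Gm26637. Eif2ak4 was accompanied by the Srp14 promoter (11.2 and 10.4) and by a site 11.9 kb past its end (6.99 and 7.0). Counting only sites over 1 kb from any start site, Eif2ak1 had 2, Eif2ak2 had 0, Eif2ak3 had 4 and Eif2ak4 had 1. Among protein-coding genes, 35.3% had at least 1 of these, 18.6% at least 2 and 5.37% at least 4.

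None of the 4 kinases had an intragenic interval in both thresholded lists, and Eif2ak3 had 1 in replicate 1 alone, with an enrichment of 6.94. The longer list called from both replicates together gave Eif2ak1 5 intragenic intervals, against 0 for Eif2ak2, 1 for Eif2ak3 and 0 for Eif2ak4. Those of Eif2ak1 were weak, with enrichments of 1.99 to 3.24, and 2 of the 5 lay in an exon with untranslated sequence at its 3′ end. At least 5 such intervals were present in 3.82% of all protein-coding genes and in 12.9% of the 2266 with bodies of 60 to 120 kb, the range that holds Eif2ak1, Eif2ak3 and Eif2ak4. One of them, centred 57.0 kb from the 5′ end of Eif2ak1, was also in the pseudoreplicated list of each replicate, with 2.73 and 3.36.

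The effectors downstream of the kinases had lower promoter enrichments than Eif2ak2, Eif2ak3 and Eif2ak4. Against Eif2ak1, Trib3 and Ppp1r15b were higher in enrichment and Atf4, Ddit3 and Ppp1r15a were lower in both replicates. The order differed by −log10 p, where Ppp1r15b (92.3 and 108.9) and Ddit3 (79.6 and 78.2) lay above the 69.3 and 77.5 of Eif2ak2, and Trib3 lay below Eif2ak1. Atf4 (chr15:80255184-80257541, plus strand) had 6.19 in replicate 1 and 6.11 in replicate 2. Ddit3 (chr10:127290774-127296288, plus strand), which encodes the factor CHOP and has 2 records in the annotation that were merged, had 6.21 and 6.11. The Ddit3 promoter interval also lay within 1 kb of a start site of Gm4189. The values of Atf4 and Ddit3 overlapped. Trib3 (chr2:152337422-152344032, minus strand), which encodes a pseudokinase that binds ATF4, had 7.61 and 8.11 and lay above both in enrichment. By −log10 p it lay below both, with 38.1 and 41.5 for Trib3, 73.8 and 73.1 for Atf4, and the lowest mean of the 9 genes. Its promoter intervals were short, 395 and 657 bp, and 7.37% of open genes had fewer bases covered.

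The phosphatase subunits stood apart from each other. Ppp1r15a (chr7:45522916-45526268, minus strand) encodes the stress-induced GADD34 and had the lowest enrichment of the 9 genes, 4.89 and 4.88. That value came from an interval whose summit lay in a Ppp1r15a exon 1.15 kb from the nearest of its start sites and which also reached within 1 kb of a start site of Plekha4. The interval at its 5′ end had 4.30 and 4.27 and also lay within 1 kb of a start site of Plekha4. Ppp1r15b (chr1:133131143-133139783, plus strand), which encodes the constitutive subunit CReP, had 8.05 and 8.92. Its interval also lay within 1 kb of a start site of Gm26616. Ppp1r15b was therefore higher than Ppp1r15a in both replicates. By −log10 p the means were likewise 101 for Ppp1r15b and 55.5 for Ppp1r15a. Of open protein-coding genes, 2.31% were lower in enrichment than Ppp1r15a and 32.3% were lower than Ppp1r15b. Over the 9 genes the median mean enrichment was 7.86, and over all open protein-coding genes it was 9.80; for −log10 p the medians were 78.9 and 71.3.

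Response elements were searched as TGATGNAA, the composite word bound by C/EBP and ATF factors (called CARE), and TGACGTCA, the cyclic AMP response element (CRE), on both strands within 500 bp of the 5′ end. This width was chosen after the data were seen. A CARE word was present for Ddit3, Ppp1r15b and Trib3, 3 of the 9 genes, and for 10.9% of protein-coding genes. In narrower windows it was found for Trib3 alone. It was in 1 of 9 RefSeq promoters of 8 of the genes (3.97% of all RefSeq promoters). Ppp1r15b had no entry there, so its word could not be counted in that window. Within 75 bp of the summit, 1 of the 11 promoter sites held the word (0.809% of all sites near a start site). The middle of the CARE word lay 278 bp upstream of the 5′ end of Ddit3, 33 bp upstream of that of Ppp1r15b and 11 bp upstream of that of Trib3, in GENCODE M21. From the RefSeq start, which lies farther upstream, the Trib3 word began at +14, inside the transcript. In all 3 genes the word lay inside a thresholded interval of both replicates. A CRE word was found for Ppp1r15a alone of the 9 genes, 9 bp upstream of its 5′ end and inside an interval of both replicates, and for 3.32% of protein-coding genes. Short stretches are shown along the gene strand, with the word in capitals, for Ddit3 (chr10:127290481-127290510), Trib3 (chr2:152344028-152344057) and Ppp1r15a (chr7:45526262-45526291), and for Atf4 (chr15:80255133-80255162) with the GATA word that began 39 bp upstream of its RefSeq start. In Ddit3 and Trib3 the capitals read as the reverse complement of TGATGNAA.
Ddit3: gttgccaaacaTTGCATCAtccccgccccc
Trib3: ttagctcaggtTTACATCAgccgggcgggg
Ppp1r15a: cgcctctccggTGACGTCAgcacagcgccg
Atf4: cggcgtctcgcgTGATAAcctggcagcttc

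The windows of the effectors were shorter than those of Eif2ak1, Eif2ak2, Eif2ak3 and Eif2ak4, from 102.4 to 108.6 kb. They held 3 to 9 sites each beyond the promoter, where 30.9% of protein-coding genes had at least 3 and 15.2% at least 5. Atf4 had 5 sites in both replicates beyond its promoter. They comprised the promoters of Mief1 (11.4 and 11.7) and Rps19bp1 (11.2 and 11.3), a pair 29.8 and 29.2 kb upstream (8.89 and 6.44 in replicate 1, 10.02 and 5.22 in replicate 2), and a weak site 0.956 kb past its 3′ end (4.26 and 4.38). Both neighbouring promoters were higher than the Atf4 promoter in each replicate. All 5 sites of Ddit3 lay within 1 kb of start sites of other genes, among them Dctn2, Mbd6, Mars and Gli1, and their enrichments ran from 3.95 to 10.4 in replicate 1 and from 3.77 to 10.1 in replicate 2.

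Ppp1r15a had 9 such sites, the most of the 9 genes, and 3.10% of protein-coding genes had as many or more. Of these, 6 lay within 1 kb of start sites of Tulp2, Nucb1, Hsd17b14, Bcat2 or 0610005C13Rik, and 3 lay farther from any. One of the 3, in a Nucb1 exon and Tulp2 intron 14.2 kb past the end of Ppp1r15a, held the GATA word AGATAA, 2 CACCC words and a copy of TGANTCA, the word that the AP-1 and NF-E2 factors bind. Its enrichment was 6.17 in replicate 1 and 5.95 in replicate 2. Ppp1r15b had the single intragenic site in both replicates among the 9 genes, where 11.3% of protein-coding genes had at least 1. That site lay in an exon 2.43 kb from the 5′ end, held AGATAA, and was weak (2.90 and 3.46). Both further sites of Ppp1r15b lay in introns of Pik3c2b, 46.7 and 47.7 kb upstream. Trib3 had the promoters of Tbc1d20 (9.14 and 11.1) and Rbck1 (8.52 and 9.42), a site 19.5 kb upstream (8.24 and 9.04) and one 29.8 kb upstream near a start site of Gm14164 (7.07 and 7.41). The last of these held TGATAA as well as a copy of TGANTCA.

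**Figure D4:**
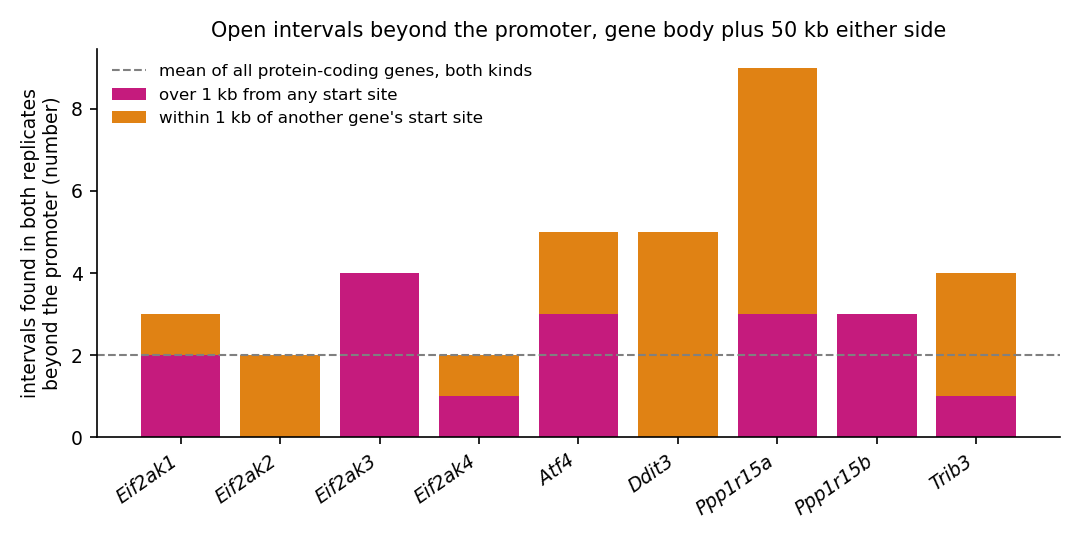
Number of intervals found in both replicates beyond the promoter of each gene (y axis), stacked as over 1 kb from any start site (lower part) and within 1 kb of another gene's start site (upper part); the dashed line is the mean over all protein-coding genes. Eif2ak1 has 3 and Ppp1r15a has 9, against a mean of 2.00.

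Together the 9 windows held 48 sites found in both replicates, 11 at promoters and 37 beyond them. Of the 37, 20 lay within 1 kb of a start site of another gene and 17 lay over 1 kb from any. At least 1 of these distant sites was present for 7 of the 9 genes, the exceptions being Eif2ak2 and Ddit3, and for 35.3% of protein-coding genes. The mean number per gene was 1.89 over the 9 genes and 0.756 over all protein-coding genes. All 9 genes had open promoters, as did 41.4% of all protein-coding genes, and the comparison was not limited to open genes. Windows also differ in length and in the number of neighbouring genes. The part of these differences in the counts was not tested.

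Of the 17 sites over 1 kb from any start site, 3 held a GATA word within 75 bp of the summit (17.6%): the Pms2 intron site past Eif2ak1, the Nucb1 exon site past Ppp1r15a and the exon site of Ppp1r15b. The share over all 6181 such sites in both replicates was 48.3%. With AGATAA as the only word the difference was smaller, 17.6% of the 17 sites and 25.4% of the 6181. CACCC words were found at 7 of the 17 (41.2%), and at 27.2% of the 6181. No test was made of either share, since the 17 sites belong to 7 genes and some adjoin each other.

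Replicates placed these paired sites alike. Overlap was a condition for pairing, and unpaired intervals do not enter the distances or ratios. The median distance between paired summits was 6 bp, 44 of the 48 pairs lay within 20 bp, and the enrichment in replicate 2 was 0.810 to 1.29 times that in replicate 1. A further 4 intervals were found in replicate 1 alone and 9 in replicate 2 alone. Of these, 3 and 8 overlapped an interval in the pseudoreplicated list of the other replicate, a longer and less strict list. In the pseudoreplicated lists 9 of the 9 promoters were open, against 46.6% of protein-coding genes. The strongest promoter interval of each gene was the same there as in the thresholded lists, so this count could not have been lower.

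Genes around the pathway were examined in 5 lists of 68 genes, of which 55 had an open promoter in both replicates (80.9%, against 41.4% of protein-coding genes). All 9 subunits of eIF2 and its exchange factor eIF2B were open, with the highest mean enrichments at Eif2s3y (17.0), Eif2b3 (13.4) and Eif2b1 (12.9). All 13 partners and sensors of the kinases and phosphatase were open. The highest were Oma1 (14.4), a mitochondrial protease that in human cells relays mitochondrial stress to HRI, Prkra (14.2), an activator of PKR, and Dnajc3 (13.1), an inhibitor of PKR and PERK. All 12 aminoacyl-tRNA synthetase genes were open as well, led by Tars (17.7), Iars (14.9) and Wars (14.9), the cytosolic enzymes that charge threonine, isoleucine and tryptophan tRNAs.

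**Figure D5:**
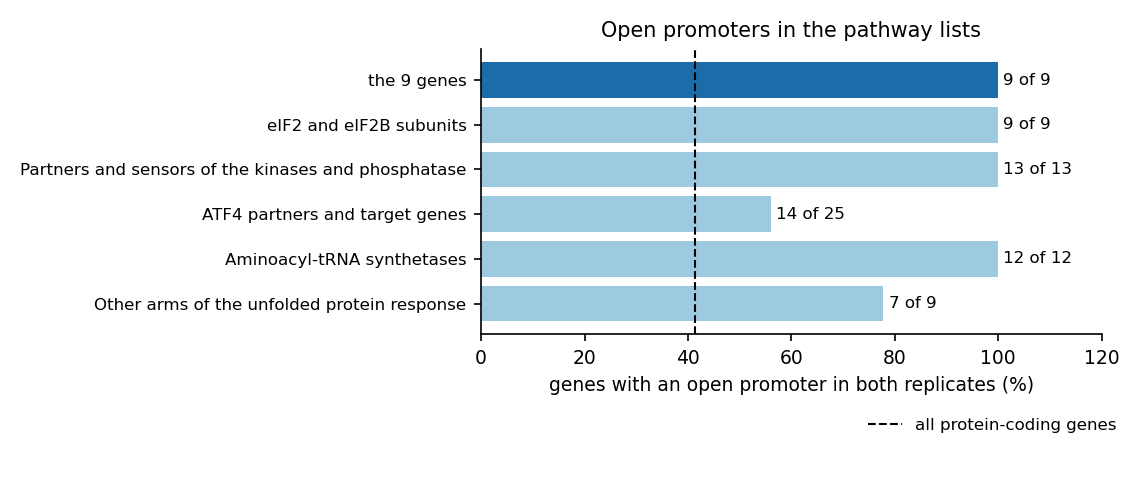
Share of genes with an open promoter in both replicates (%, x axis) for the 9 genes and for the 5 lists of related genes, with the number open of the number measured; the dashed line marks all protein-coding genes. The list of ATF4 partners and targets has the smallest share, 14 of 25 genes (56%), which still lies above the dashed line at 41.4%.

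The list of ATF4 partners and target genes had the smallest share of the 5 lists, 14 of 25 (56%), against 41.4% of all protein-coding genes. Its highest open promoters were Cth (12.7), which encodes the enzyme that makes cysteine from cystathionine, Cebpg (11.2), a dimer partner of ATF4, and Mthfd2 (10.99), a mitochondrial folate enzyme. Atf3 and Eif4ebp1 were open in replicate 2 alone, with 7.10 and 6.10, and Cebpb in replicate 1 alone, with 4.11. These 3 were open in both pseudoreplicated lists. The other 8, Slc7a11, Phgdh, Nupr1, Fgf21, Gdf15, Stc2, Vldlr and Grb10, had no thresholded promoter interval in either replicate. They include Slc7a11, the cystine transporter, Phgdh, the first enzyme of serine synthesis, and the secreted factors Fgf21 and Gdf15.

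Genes of the other arms of the unfolded protein response were open in 7 of 9 cases (77.8%, against 41.4% of protein-coding genes). Edem1 (12.8), which acts in disposal of misfolded glycoproteins, Xbp1 (10.6), the factor spliced by IRE1, and Atf6b (10.2) had the highest enrichments. Mbtps2, the protease that releases ATF6, and Creb3l1 had no promoter interval in either thresholded list.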

How the data were processed

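Peak lists of 2 ATAC-seq replicates of mouse erythroblasts were used: a thresholded and a pseudoreplicated list for each replicate and a replicated list made from both. In the deposited lists the enrichment is a ratio (fold over background) and the significance is a −log10 p, both as the authors' peak caller gave them, with coordinates in mm10 per the labels. Neither the aligner nor the caller with its settings is given in the sources used here. The lists hold no counts, so depth is unknown, and no step that makes values comparable between lists is known. Genes were ordered within a list, while means, SDs and ratios over the replicates set values of separate lists side by side as a description.

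Repeated lines of an interval were merged, keeping the strongest summit, on chromosomes 1 to 19, X and Y. Sites found in both replicates overlapped by at least 1 bp. Genes and start sites came from GENCODE M21, and sequences from RefSeq and GRCm38.p6. Intervals were promoter (within 1 kb of a start site of the gene), intragenic or outside. Python 3.11.15, pandas 2.3.3, numpy 2.4.6, pysam 0.24.0 and matplotlib 3.10.9 were used, and the calls were tested on simulated data. The rule for names took the 9 genes and, of the pathway lists, every gene that was not open and the 3 open genes of each list with the highest enrichment, plus owners of start sites inside the windows. Members, lists and tests were chosen with earlier results of these data known. Motif shares cover whole classes of sites and were not tested. Ranked and conservative lists were not used. Alternatives were other lists, 1 replicate left out, other widths of promoter, flank and motif window, and 1 start site per gene.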

Additional observations from a re-analysis of the deposited data

How the results depend on the processing

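No paired analysis was possible because the series holds 1 group and no test was made. Of 62 recomputed values, 38 stayed within the spread of the replicates or within 1.5 times the count reported, and 24 moved. Counts and shares cannot be negative, so only the 8 values of the difference between Eif2ak1 and the other kinases could change sign. Of these, 0 did, but 4 were -4.34 again. For these 4, the pseudoreplicated lists, the other promoter widths and the single start site picked the same strongest intervals. They therefore add no evidence on the difference. The 9 open promoters in the pseudoreplicated lists likewise could not have become fewer. The 9 open promoters became 4 (Eif2ak2, Eif2ak3, Eif2ak4 and Ppp1r15b) where only intervals at or above the median enrichment of their list were kept, since the other 5 lie under that median in at least 1 replicate. Eif2ak1 then had no value, so its difference from the other kinases could not be computed. That difference of -4.34 was -4.81 in the series-level replicated list, and it ran from -4.63 to -4.58 with 1 replicate left out. The -4.34 takes the median of the kinases' means over both replicates. The other values take the median within 1 list, so these shifts also reflect a change of statistic. As −log10 p, a measure added after the data were seen, it was -9.16. This value is on another scale, so its place among the 24 that moved says nothing about the size of the change. By −log10 p the mean of Eif2ak1 (83.3) lay above that of Eif2ak2 (73.4). Sites beyond the Eif2ak1 promoter numbered 3, and were 5 in the pseudoreplicated lists, 9 in the replicated list and 7 with flanks of 100 kb; with 1 replicate left out they were 3 to 4. The median of the other 3 kinases was 2, and was 5 in the replicated list, 5 with flanks of 100 kb, 1 with flanks of 20 kb and 1 for sites over 1 kb from any start site, a count added after the data were seen. The share of protein-coding genes with an open promoter, 41.4%, was 46.6% in the pseudoreplicated lists, 30.0% in the stricter lists, 50.7% in the replicated list, 40.6% with promoters of 500 bp, 42.4% with 2 kb and 38.4% with 1 start site per gene, and 42.2% to 42.8% with 1 replicate left out. Pathway genes open at the promoter numbered 44 to 59 of 68 over 8 alternatives. The 6 sites with a GATA word, of 37 beyond promoters, were 14 of 57 in the pseudoreplicated lists, 1 of 16 in the stricter lists, 13 of 37 within 150 bp of the summit and 3 of 37 for AGATAA alone, and 7 of 40 to 8 of 44 with 1 replicate left out. The 37 mix 20 sites near start sites of other genes with 17 farther away. Over all sites of these kinds the GATA shares were 13.8% and 48.3%. No such shares were computed for the other lists or the wider window, so these counts cannot be set against a background. Depth is unknown, so no limit can be set on sites that were missed.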
